A study of Mus musculus with 4 samples.

Results

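The 10 genes of the calcium-binding proteins described here, of 31053 genes in the count matrices, were followed across the cells of the ventromedial prefrontal cortex (vmPFC). They were chosen by name and family, with earlier results of these data known, and all 10 are listed in every library. S100b and S100a10 are S100 proteins. Calb1 (calbindin), Calb2 (calretinin) and Pvalb (parvalbumin) are the calcium buffers by which cortical interneurons are usually classified. Necab1 and Necab2 are neuronal EF-hand proteins, and Hpca (hippocalcin), Hpcal4 and Ncald (neurocalcin delta) are neuronal calcium sensors of the visinin-like family. Unique molecular identifiers (UMIs) of a gene were added up over the cells of a group within each library, and levels are given as CPM, that sum scaled to the group's total UMIs, as mean ± SD over libraries.

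The study, MERGE-seq, labelled vmPFC neurons by their projections. Male C57BL/6 mice, 8 weeks of age in the labels, received retrograde AAV vectors carrying EGFP and a short barcode, unilaterally, in the agranular insula, dorsomedial striatum, mediodorsal thalamus, basolateral amygdala and lateral hypothalamus. Tissue of the prelimbic and infralimbic areas was dissociated for droplet-based 3' sequencing. The unsorted group had 3 libraries titled mouse 1, 2 and 3, called unsorted replicates 1 to 3 below, and the sorted group consists of a single library from EGFP+ cells of 3 pooled mice. All mice carried the vectors, so there was no uninjected control. The matrices hold a single barcode feature with no separation by target, so a barcode count here says nothing of where an axon went.

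An EF-hand is a helix-loop-helix fold that holds a calcium ion. Proteins such as parvalbumin and the calbindins are best known as buffers that bind the calcium entering a neuron during firing, whereas hippocalcin and neurocalcin are sensors that expose a lipid anchor and move to the membrane when calcium binds. S100b is a classical marker of astrocytes, and S100a10 forms a complex with annexin A2 and does not itself bind calcium.

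The authors' metadata name 9368 excitatory neurons in 7 subtypes, of which 7765 came from the unsorted libraries. In the cells outside that file, 1275 unsorted inhibitory cells were taken at 4 or more Gad1 plus Gad2 UMIs with at most 3 Slc17a7 UMIs, and 565 astrocytes at 3 or more Aqp4 plus Gja1 UMIs. The 5 inhibitory markers summed to 2935 to 3104 CPM in the inhibitory cells against 4.57 to 5.98 CPM in excitatory neurons, and the 6 astrocyte markers to 9086 to 10979.6 CPM in the astrocytes. These sums include the gate genes Gad1 and Gad2, or Aqp4 and Gja1, which are high by the choice of cells. The astrocyte gate was not pure, since 4 endothelial markers summed to 1737 to 2212 CPM in it, against 106 to 211 CPM in microglia. Likewise 5 oligodendrocyte markers summed to 383 to 1741 CPM (106 to 329 CPM in microglia), 3 mural markers to 601 to 821 CPM (78.0 to 94.1 CPM) and 5 microglial markers to 146 to 708 CPM (11.2 to 13.8 CPM in excitatory neurons). A further 2619 cells with 6 or more C1qa plus C1qb UMIs and no UMI of the other gate genes or of Mog, called microglia here, served as a measure of free RNA. Cells chosen in this way can hold less free RNA than others, so microglial values may understate it. Where a marker list holds an excluded gene, such as Slc17a7 or Mog, its microglial sum is low in part by this choice. Libraries held 54728191 to 87809114 UMIs. Median UMIs per cell barcode were 5382.5 to 5660.0 in the unsorted and 29262 in the sorted library. Between libraries, 82 cell barcodes were shared, and 68 of the excitatory neurons carry such a barcode.

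The members lie on 5 chromosomes (GRCm38, GENCODE M21, all protein coding). Calb1 (chromosome 4, 15881264 to 15908064, plus strand) and Necab1 (chromosome 4, 14952245 to 15149794, minus strand) are 731469 bases apart. Hpca (129111570 to 129122036, minus strand) and Hpcal4 (123183227 to 123194701, plus strand) are on chromosome 4 as well. Calb2 (110137502 to 110168210, minus strand) and Necab2 (119446719 to 119472640, plus strand) are on chromosome 8. Pvalb (78191114 to 78206400) and Ncald (37366175 to 37792570) are both on the minus strand of chromosome 15. S100b is on chromosome 10 (76253853 to 76261159, plus strand), where its gene model overlaps Dip2a on the other strand, and S100a10 is on chromosome 3 (93555080 to 93564643, plus strand). Necab1 and Hpca likewise overlap other annotated genes on the other strand alone. Ncald overlaps annotated genes on its own strand too, and reads shared there could not be told apart.

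Among the excitatory subtypes, S100b and Calb1 each marked the subtype named after it, whereas Calb2 and Pvalb were nearly absent from all 7. The sensors Ncald and Hpcal4 were highest in L6-Syt6 neurons, Hpca and Necab1 in L2/3-Rorb neurons, Necab2 in L2/3-Calb1 neurons and S100a10 in L5-Bcl6 neurons. Because these subtypes came from clustering the same cells, on genes that can include the members, the levels below are a description with no test. In the order of levels, subtypes are said not to differ beyond their spread where the ranges of the 3 unsorted libraries overlap.

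**Figure D1:**
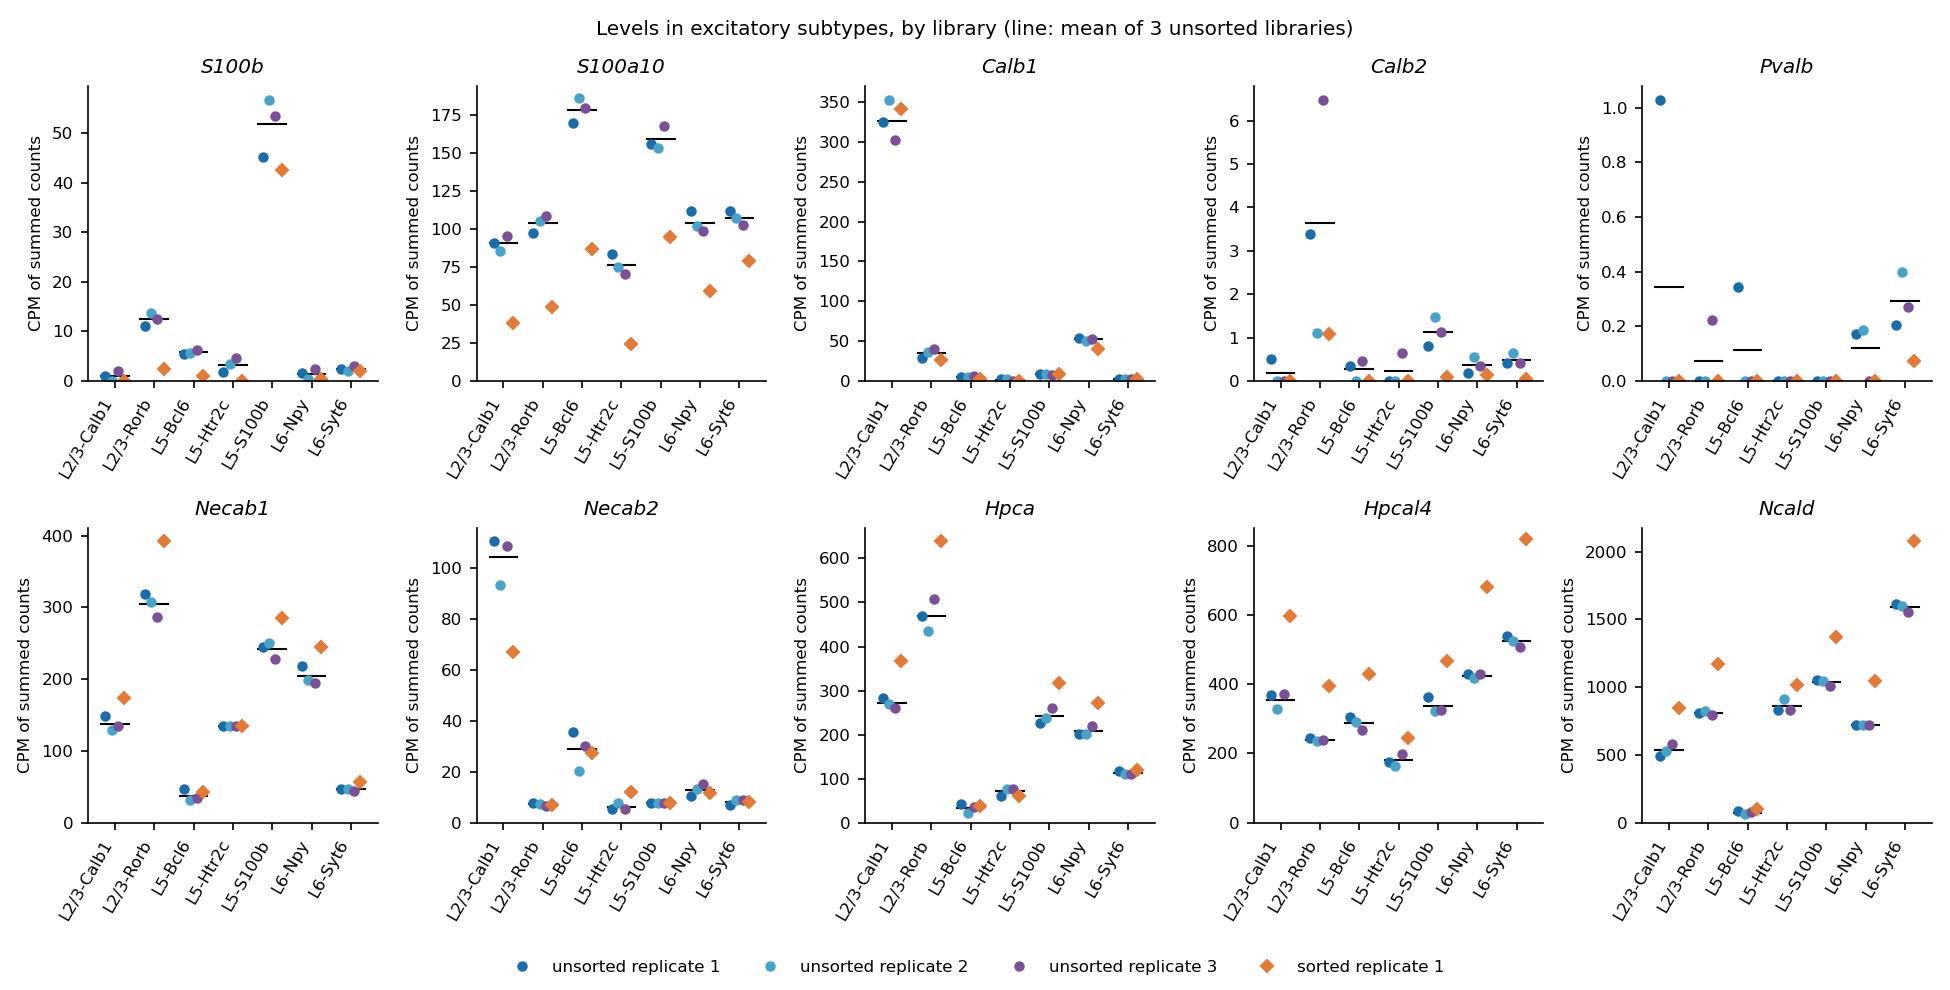
CPM of each calcium-binding gene (vertical axes, each from 0) in the 7 excitatory subtypes (horizontal axes); circles are the unsorted libraries, diamonds the sorted library, and lines the mean of the 3 unsorted libraries. S100b stands highest in L5-S100b and Calb1 in L2/3-Calb1, and the sorted library lies below the unsorted ones for S100a10 and above them for Hpcal4 and Ncald; the sorted points of L5-Htr2c rest on 4 neurons.

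S100b in L5-S100b neurons was 45.2, 56.7 and 53.5 CPM in the unsorted libraries (51.8 ± 5.92, n = 3) and 42.5 CPM in the sorted library. The next subtype was L2/3-Rorb at 12.4 ± 1.36 CPM, followed by L5-Bcl6 at 5.78 ± 0.464 CPM, and the library ranges of these 3 subtypes were apart. L5-Htr2c, L6-Syt6, L6-Npy and L2/3-Calb1 followed at 3.27, 2.42, 1.44 and 0.99 CPM with overlapping ranges. Free RNA bears on these low values. Microglia held 0.0527 S100b UMIs per cell, near the 0.056 per cell in L6-Syt6 and above the 0.0299 in L6-Npy, whereas L5-S100b neurons held 1.30 per cell and L2/3-Rorb neurons 0.275. L5-Htr2c and L2/3-Calb1 neurons held 0.0473 and 0.0189 per cell. The S100b signal of these last 4 subtypes was at most 1.06 times the microglial value per cell and is read as background. S100b was not detected in every neuron of its subtype. With each neuron thinned to 10000 UMIs, 28.3% ± 4.07 of L5-S100b neurons held a UMI (44.0% ± 5.35 without thinning), against 5.73% ± 0.0684 of L2/3-Rorb and 0.966% ± 0.991 of L2/3-Calb1 neurons. With every cell thinned to 2000 UMIs, the depth at which microglia can be set beside neurons, the share was 7.34% ± 0.724 in L5-S100b neurons and 1.45% ± 0.178 in microglia.

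Calb1 in L2/3-Calb1 neurons was 325, 353 and 302 CPM (326 ± 25.4, n = 3) and 341 CPM in the sorted library. L6-Npy neurons followed at 52.0 ± 1.98 CPM and L2/3-Rorb neurons at 34.9 ± 6.03 CPM, with ranges apart. L5-S100b (8.42 ± 0.87 CPM) and L5-Bcl6 (5.49 ± 0.815 CPM) were lower, and L6-Syt6 and L5-Htr2c were at 2.14 and 1.71 CPM and did not differ beyond their spread. At 10000 UMIs per neuron, 90.1% ± 2.6 of L2/3-Calb1 neurons held a Calb1 UMI. Within L5-S100b neurons, a Calb1 UMI was found in 9.29% ± 1.74 of neurons with an S100b UMI and in 17.8% ± 2.22 of those without one (3 libraries, described only).

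Calb2 and Pvalb were close to absent from excitatory neurons. Over all unsorted excitatory neurons, Calb2 had 138 UMIs in 7765 cells (0.788 ± 0.17 CPM) and Pvalb 35 UMIs (0.2 ± 0.0418 CPM). Calb2 was highest in L2/3-Rorb at 3.38, 1.10 and 6.47 CPM, a value that rests on few cells, since 1 neuron of the third library held 14 UMIs. Pvalb had 0 UMIs in the 1096 unsorted L5-S100b neurons, where a count of 0 allows up to 0.304 to 0.342 CPM per library (3 counts, counting error only).

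Necab1 was 319, 308 and 287 CPM in L2/3-Rorb neurons (305 ± 16.1, n = 3). L5-S100b (242 ± 11.6 CPM) and L6-Npy (204 ± 12.8 CPM) followed with ranges apart. L2/3-Calb1 and L5-Htr2c neurons did not differ beyond their spread, at 137 and 135 CPM, nor did L6-Syt6 and L5-Bcl6 neurons, at 46.3 and 37.6 CPM. Its paralogue Necab2 had another order. Necab2 was 111, 93.4 and 109 CPM in L2/3-Calb1 neurons (104 ± 9.44, n = 3), 28.8 ± 7.71 CPM in L5-Bcl6 and 13 ± 2.3 CPM in L6-Npy neurons, and between 6.04 and 8.23 CPM in the other 4 subtypes, whose ranges overlapped from one to the next.

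Hpca was 468, 434 and 508 CPM in L2/3-Rorb neurons (470 ± 37.0, n = 3), and its library ranges were apart between every pair of neighbours in the order. L2/3-Calb1, L5-S100b, L6-Npy, L6-Syt6, L5-Htr2c and L5-Bcl6 followed at 271, 241, 207, 113, 71.2 and 33.2 CPM. Hpcal4 was 540, 525 and 507 CPM in L6-Syt6 neurons (524 ± 16.3, n = 3), 425 ± 6.47 CPM in L6-Npy neurons and 180 ± 17.2 CPM in L5-Htr2c neurons, the lowest. Between them, L2/3-Calb1 (355 CPM) and L5-S100b (336 CPM) overlapped, and L5-Bcl6 (288 CPM) and L2/3-Rorb (240 CPM) stood apart. Ncald was 1612, 1601 and 1557 CPM in L6-Syt6 neurons (1590 ± 29.3, n = 3) and 1037 ± 21.9 CPM in L5-S100b neurons. L5-Bcl6 neurons were the lowest for both Hpca and Ncald, and held 84.3, 62.1 and 77.5 CPM of Ncald.

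S100a10 varied less between subtypes than the other members, with its highest mean 2.34 times its lowest, against 2.92 times for Hpcal4 and 8.11 times or more for the rest. L5-Bcl6 neurons held 170, 186 and 179 CPM (178 ± 8.19, n = 3) and L5-S100b neurons 159 ± 7.66 CPM. L6-Syt6, L6-Npy and L2/3-Rorb neurons lay at 107, 104 and 104 CPM and did not differ beyond their spread, above L2/3-Calb1 (90.5 CPM) and L5-Htr2c (76.1 CPM).

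For the members other than Necab1, the genes of most similar pattern were sought among the 8159 genes with at least 20 CPM in 1 or more subtypes, by Pearson's r of log2(CPM + 1) over the 7 subtype means of the unsorted libraries. These are correlations over 7 points that share libraries and clustering, and were not tested. S100b was most like Nmnat2 (r = 0.97), Bicd2 (0.97) and Zdhhc21 (0.95). Calb1 was most like Ccbe1 (r = 0.99), Slc6a6 (0.98) and Tubgcp2 (0.98), and Necab2 most like Slc1a3 (r = 0.98), Wfs1 (0.96) and Dlg4 (0.96). Hpca was nearest to Car10, Xkr4 and Tmem145, Hpcal4 to Col23a1, Dtnb and Ociad2, Ncald to Socs2, Herpud1 and Tmem55b, and S100a10 to Mtmr1, Garem1 and Gopc. Calb2 and Pvalb did not reach 20 CPM in any subtype, so their nearest genes are not given.

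In the sorted library, which has no replicate, L5-Htr2c rests on 4 neurons and is left out here, and the other 6 subtypes on 40 or more. In those 6, S100a10 lay below all 3 unsorted libraries, at 0.42 to 0.73 of the unsorted mean. Hpcal4 and Ncald lay above them, at 1.39 to 1.68 and at 1.31 to 1.58 of the unsorted mean. Hpca and Necab1 were each above in 5 and within the range in 1, L5-Bcl6. S100b in L2/3-Rorb neurons was 2.45 CPM in the sorted library, below the 11.03 to 13.7 CPM of the unsorted ones. The sorted neurons were read more deeply and passed a sort, so sorting, mice and library cannot be told apart.

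Against excitatory neurons, inhibitory cells held far more of the 3 classical interneuron proteins and of both Necab genes, and less of the 3 sensors and S100b. Sums per library of excitatory neurons, inhibitory cells and astrocytes were fitted in edgeR (quasi-likelihood test, library as a block), and a call needed both an adjusted p (Benjamini-Hochberg, over all genes) under 0.05 and a change of 0.5 or more on the log2 scale. Of the 10 members, all tested, 5 were called higher and 4 lower in inhibitory cells, where 39.5% of the 14121 genes tested were called, 21.1% higher and 18.4% lower. The members' median absolute log2 fold change was 1.98, against 0.40 over all genes. The members were chosen with earlier results of these data known and include the 3 classical interneuron proteins, so this excess is a description and no test.

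**Figure D2:**
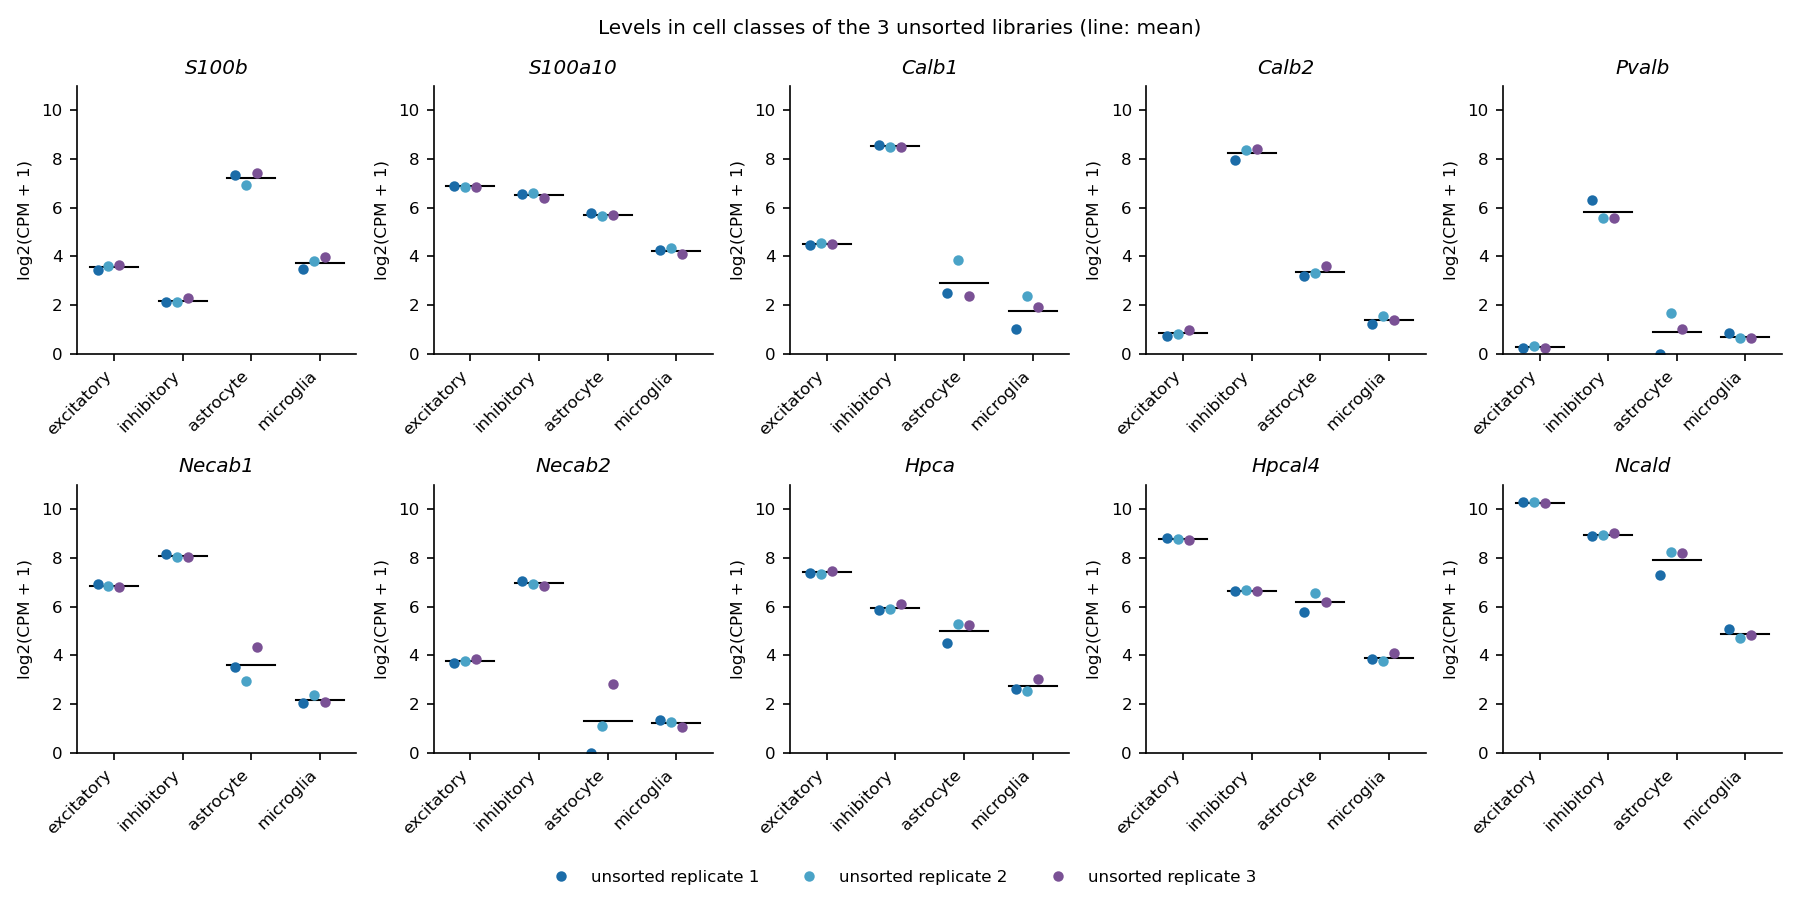
Level of each calcium-binding gene as log2(CPM + 1) (vertical axes) in excitatory neurons, inhibitory cells, astrocytes and microglia (horizontal axes); points are the 3 unsorted libraries and lines their mean. Calb1, Calb2, Pvalb, Necab1 and Necab2 stand highest in inhibitory cells, S100b in astrocytes, and Hpca, Hpcal4 and Ncald in excitatory neurons.

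Calb2 was 251, 330 and 340 CPM in inhibitory cells and 0.657, 0.727 and 0.981 CPM in excitatory neurons, a log2 fold change of 8.49 (SE 0.07, edgeR adjusted p = 2.2e-23). Pvalb was 78.1, 46.6 and 46.5 CPM in inhibitory cells and at most 0.248 CPM in excitatory neurons (log2 fold change 8.02, SE 0.17, edgeR adjusted p = 7.9e-18). No library of one class overlapped the other class for either gene. Calb1 was 381, 360 and 355 CPM in inhibitory cells against 20.9 to 22.5 CPM in excitatory neurons (log2 fold change 3.98, SE 0.06, edgeR adjusted p = 1.4e-20). The level in inhibitory cells was close to that in the L2/3-Calb1 neurons alone, 302 to 353 CPM. Necab2 rose from 12.7 ± 0.772 to 123 ± 9.68 CPM (log2 fold change 3.18, SE 0.08) and Necab1 from 116 ± 4.86 to 270 ± 13.1 CPM (log2 fold change 1.12, SE 0.05).

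The sensors were lower in inhibitory cells. Hpcal4 was 97.9 to 103 CPM in inhibitory cells and 428 to 452 CPM in excitatory neurons (log2 fold change -2.23, SE 0.06, edgeR adjusted p = 1.1e-16). Hpca fell from 169 ± 7.69 to 61.6 ± 5.01 CPM (log2 fold change -1.55) and Ncald from 1242 ± 20.8 to 497 ± 24 CPM (log2 fold change -1.42). S100b was 3.31, 3.36 and 3.95 CPM in inhibitory cells, a log2 fold change of -1.72 (SE 0.17), and with 0.0518 UMIs per cell, against 0.0527 in microglia, the inhibitory value was not above background. S100a10, at 90.8 ± 6.22 against 116 ± 2.37 CPM, had a log2 fold change of -0.45 (edgeR adjusted p = 1.9e-07), under the size required for a call.

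Of 25 other EF-hand genes, all tested, 6 were called higher and 11 lower in inhibitory cells, with a median log2 fold change of -0.16 (0.02 over all genes). They included Kcnip1 (log2 fold change 5.20), a potassium channel-interacting protein, its relative Kcnip3 (-3.48), S100a6 (-2.93) and S100a16 (2.13). Of 11 partners and calmodulin targets, 2 were higher and 9 lower. Nrgn, the postsynaptic calmodulin-binding protein neurogranin, was lower by a log2 fold change of -5.85 and Pcp4 by -2.93, whereas Pcp4l1 (5.78) and Anxa2, the partner of S100a10 (5.64), were higher.

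Astrocytes held more S100b than excitatory neurons and less of most other members. Of the 10, 2 were called higher and 7 lower, where 65.9% of genes tested were called, 30.9% higher and 35% lower. S100b was 161, 122 and 171 CPM in astrocytes and 9.97 to 11.6 CPM in excitatory neurons (log2 fold change 3.60, SE 0.12, edgeR adjusted p = 5.1e-15). All astrocyte libraries were above the L5-S100b neurons, at 45.2 to 56.7 CPM. Per cell the order was the other way, with 0.738 S100b UMIs in astrocytes and 1.30 in L5-S100b neurons. Calb2 was also called higher, by 3.37 (SE 0.37), but on 26 UMIs in 565 astrocytes, or 0.046 per cell, which was above the 0.00687 per cell in microglia. The microglial value may be low by the choice of those cells, and the part of free RNA in the astrocyte Calb2 value was not tested. Pvalb had 3 UMIs in all astrocytes and was not called (edgeR adjusted p = 0.085). The part of the oligodendrocyte, mural, microglial and endothelial RNA in this gate in these differences was not tested.

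The 7 lower members kept some signal in the astrocyte gate. Ncald was 157, 307 and 292 CPM (log2 fold change -2.50), Hpcal4 54.2 to 92.2 CPM (-2.79), Hpca 21.9 to 37.8 CPM (-2.58) and S100a10 48.9 to 54.2 CPM (-1.38). Necab1 was 10.4, 6.67 and 19.5 CPM (log2 fold change -3.42). Calb1, at 4.61, 13.3 and 4.10 CPM (log2 fold change -1.77), owed its second value to 1 cell with 10 of 12 UMIs. Necab2 had 7 UMIs in all (log2 fold change -2.51). Of the neuronal gate genes, the 5 excitatory markers summed to 257 to 461 CPM in these cells and 46.0 to 47.7 CPM in microglia. Microglia were chosen without Slc17a7 UMIs, so their sum is low in part by that choice. The part of excitatory RNA in the values of the astrocyte gate was not tested. Of the other EF-hand genes, 6 were higher and 17 lower, with S100a16 (log2 fold change 7.93), Efhd1 (7.84), S100a13 (6.94) and S100a1 (6.90) among the higher. Of the partners, 3 were higher, namely Anxa2 (7.99), Pcp4l1 (4.79) and Ahnak (3.27), and 8 lower, among them Pcp4 (-2.78).

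Inhibitory cells were next divided by origin markers, Lhx6 for cells of the medial and Adarb2 for cells of the caudal ganglionic eminence, at 2 or more UMIs of the one and 0 of the other. This gave 342 Lhx6-type and 750 Adarb2-type cells in the unsorted libraries. Pvalb and Calb1 were higher in the Lhx6-type cells, and Calb2, Necab1, Necab2 and, by little, Hpca in the Adarb2-type cells. Of 9 members tested, 6 were called, where 21.2% of 11326 genes were called, 10.1% higher in Lhx6-type and 11.1% higher in Adarb2-type cells. S100b, at 2.63 and 3.40 CPM, was too low to be tested.

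**Figure D3:**
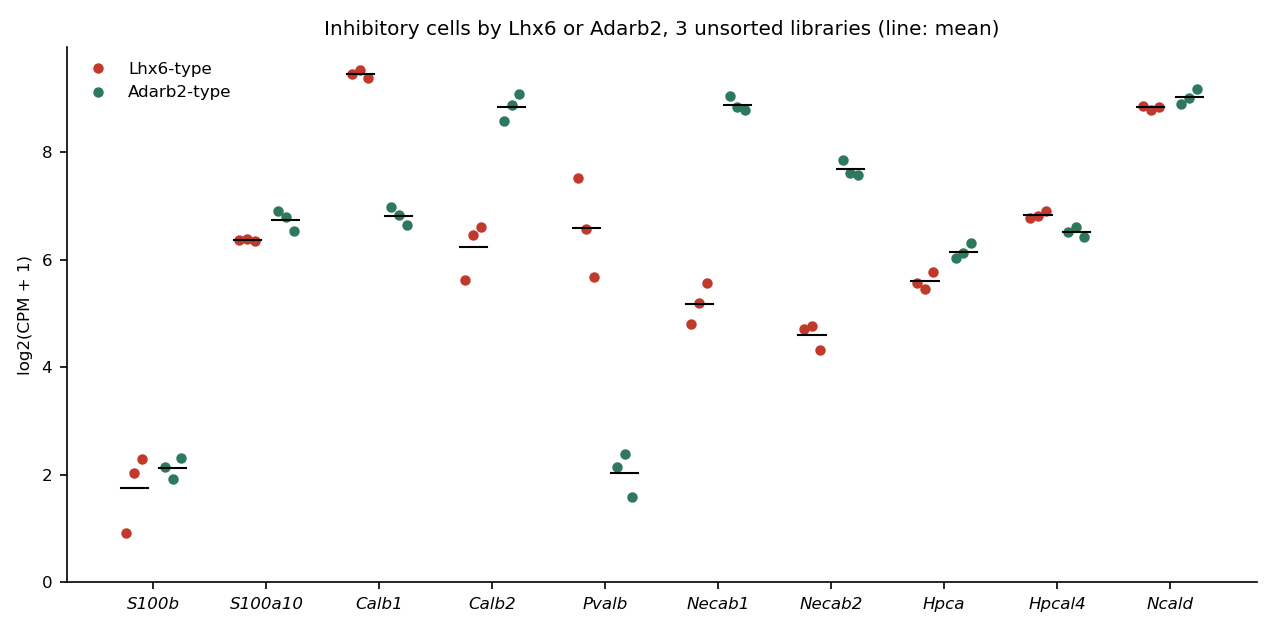
Level of each calcium-binding gene as log2(CPM + 1) (vertical axis) in Lhx6-type and Adarb2-type inhibitory cells; points are the 3 unsorted libraries and lines their mean. Pvalb and Calb1 are higher in Lhx6-type cells, Calb2, Necab1 and Necab2 in Adarb2-type cells, and the remaining members lie close together.

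Calb1 was 700, 734 and 662 CPM in Lhx6-type cells and 125, 113 and 99.6 CPM in Adarb2-type cells (log2 fold change 2.63, SE 0.06, edgeR adjusted p = 8.9e-29). Pvalb was 183, 93.7 and 50.2 CPM in Lhx6-type cells and 3.42, 4.21 and 1.99 CPM in Adarb2-type cells (log2 fold change 5.04, SE 0.17, edgeR adjusted p = 3.4e-23). The Lhx6-type libraries thus differed among themselves in Pvalb, by more than in Calb1, and 1 cell held 119 of the 416 UMIs of the first library. None came near the Adarb2-type level. The share of Lhx6-type cells with a Pvalb UMI was only 13% ± 2.72.

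Necab1 showed the largest difference toward the Adarb2-type cells, at 523, 456 and 439 CPM against 26.8, 35.5 and 46.3 CPM (log2 fold change -3.72, SE 0.10, edgeR adjusted p = 1.5e-26). Necab2 was 231, 194 and 189 CPM against 25.1, 26.2 and 19.01 CPM (log2 fold change -3.12, SE 0.10). Calb2 was 381, 466 and 541 CPM against 48.4, 86.6 and 96.5 CPM (log2 fold change -2.60, SE 0.07, edgeR adjusted p = 3.5e-25). Hpca was 70.1 ± 7.15 against 47.6 ± 5.57 CPM (log2 fold change -0.56, SE 0.10). S100a10 (-0.39), Ncald (-0.20) and Hpcal4 (0.31) differed by less than the size required, with edgeR adjusted p-values of 0.00037, 0.0017 and 0.0022.

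Joint detection was also counted in single inhibitory cells. Of 484 cells with a Calb1 UMI, 77 also held a Calb2 UMI, which was 15.9% ± 3.8 per library against 46.9% ± 4.60 of the cells without Calb1. Of 100 cells with a Pvalb UMI, 53 held a Calb1 and 11 a Calb2 UMI. Necab2 was found in 57.9% ± 3.19 of cells with a Necab1 UMI and 31.4% ± 1.04 of those without. These are shares of cells at unequal depth and were not tested. Of the other EF-hand genes, 22 of 25 were tested, 3 called higher in Lhx6-type cells and 9 lower, among them Caln1 (log2 fold change -4.53), Hpcal1 (-2.99), Kcnip2 (1.98) and Kcnip3 (-1.34). Of 10 partners tested, 4 were higher and 2 lower, with Camk4 (-2.17) and Anxa2 (1.58) the most changed.

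Neurons with 5 or more UMIs of the pooled viral barcode, called barcode-high, were compared with neurons of the same subtype and library without any, called barcode-zero. A barcode-zero neuron is not necessarily unlabelled. The paper reports that barcodes were often missed in these libraries but well detected in separate targeted ones. The barcode-zero neurons of the sorted library had themselves been sorted for EGFP. In L5-S100b neurons S100b was higher and Calb1 lower among barcode-high neurons. These were the 2 of 8 tested members called, where 2.7% of 11477 genes were called, 1.1% higher and 1.6% lower. In the other fitted subtypes no member was called. L5-Htr2c, with 2 to 4 barcode-high neurons per library, could not be fitted. Pvalb and Calb2 were too low to be tested within any subtype, and S100b was tested in L5-S100b and L6-Syt6 neurons alone.

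S100b was 54.6, 61.5 and 62.8 CPM in barcode-high L5-S100b neurons of the unsorted libraries and 48.9 CPM in those of the sorted library. In barcode-zero neurons it was 18.1, 43.2 and 11.6 CPM, and 37.5 CPM in the sorted library. Every barcode-high value lay above every barcode-zero value (log2 fold change 1.16, SE 0.18, edgeR adjusted p = 5.1e-05). The barcode-zero sums were small, 22, 40, 12 and 27 S100b UMIs in 74, 43, 54 and 24 neurons, and varied more between libraries than the barcode-high sums. In unsorted replicate 2, 1 neuron held 14 of the 40. The call was lost without the library as a replicate block (adjusted p = 0.098) and with DESeq2 (adjusted p = 0.17).

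Depth per neuron differed, with medians of 25553.5 to 34389 UMIs in barcode-high and 19306.5 to 28185 UMIs in barcode-zero neurons. With neurons thinned to 10000 UMIs before summing, the log2 fold change of S100b was 1.52. At that depth the share of neurons with an S100b UMI was 12.0% ± 7.29 at 0 barcode UMIs, 19.7% ± 7.44 at 1 to 4, 25.9% ± 3.8 at 5 to 19 and 35.6% ± 4.4 at 20 or more (3 unsorted libraries). In each of the 4 libraries the share was higher in every bin than in the one before. In the sorted library it was 13%, 13.2%, 20.7% and 31.8%. The barcode-zero share rests on 23 to 51 neurons per library.

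**Figure D4:**
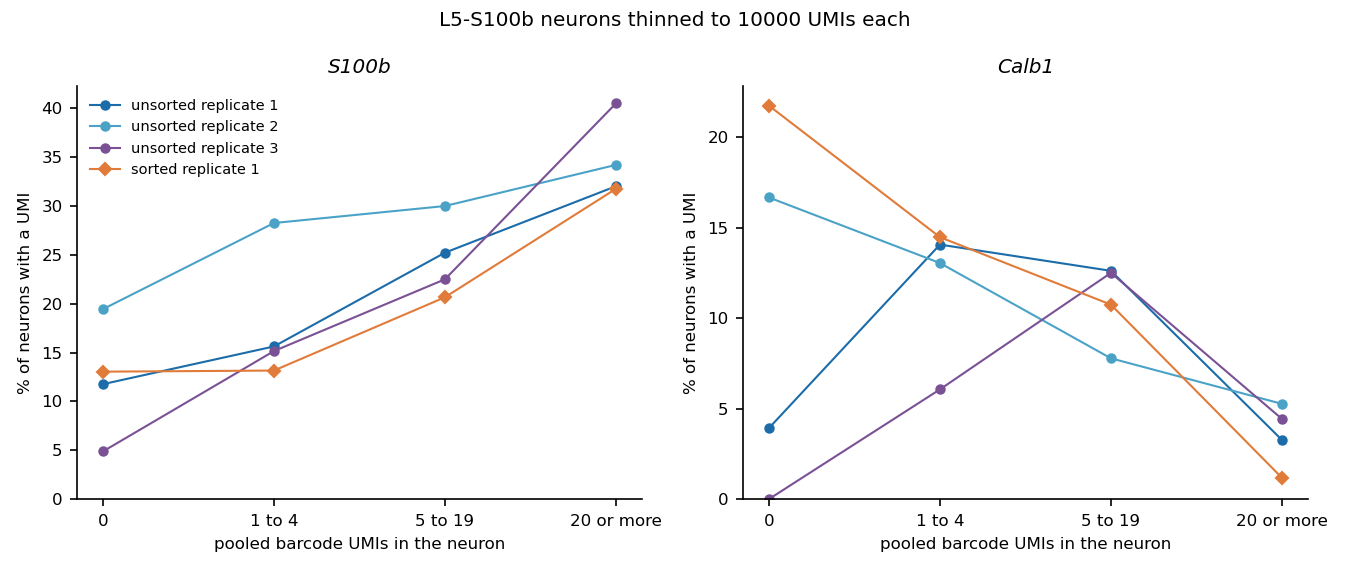
Share of L5-S100b neurons with an S100b (left) or Calb1 (right) UMI in percent (vertical axes), with every neuron thinned to 10000 UMIs, by pooled barcode UMIs in the neuron (horizontal axes); each line is 1 library. The S100b share is highest at 20 or more barcode UMIs in all 4 libraries, and the Calb1 share there is between 1.18% and 5.26%, below the 0 bin in 3 of 4 libraries and above it in unsorted replicate 3.

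S100b is also an astrocyte gene, so astrocyte markers were measured in the same sums. In the unsorted libraries the 6 markers summed to 612 to 653 CPM in barcode-high and 406 to 468 CPM in barcode-zero L5-S100b neurons. Nearly all of this was the glutamate transporter Slc1a2 at 606 to 646 and 398 to 464 CPM. In the 3 barcode-high sums, of 6687764 to 7073975 UMIs, Aqp4 had 4, 1 and 1 UMIs, Gja1 4, 3 and 4, and Gjb6 0, 4 and 2. In the barcode-zero sums, of 926007 to 1215545 UMIs, Aqp4 had 0, 2 and 0, Gja1 0, 0 and 0, and Gjb6 0, 0 and 1. Aldh1l1 was 3.39, 3.29 and 3.68 CPM in the barcode-high and 3.29, 3.24 and 1.93 CPM in the barcode-zero sums. Slc1a3 was 1.70, 1.20 and 1.42 CPM in the barcode-high and 5.76, 2.16 and 0.967 CPM in the barcode-zero sums. Apart from Slc1a2, the counts of these markers are too few to compare the groups. The part of astrocyte RNA in the S100b difference was not tested. Without neurons that hold an Aqp4 or Gja1 UMI, the log2 fold change of S100b was 1.14 (edgeR adjusted p = 6.7e-05).

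Calb1 was 8.06, 5.38 and 6.80 CPM in barcode-high L5-S100b neurons of the unsorted libraries and 5.51 CPM in the sorted library, against 12.3, 18.4, 5.80 and 19.4 CPM in barcode-zero neurons (log2 fold change -1.01, SE 0.28, edgeR adjusted p = 0.026). It was lower in 3 of 4 libraries, and the ranges overlapped. At 10000 UMIs per neuron the share with a Calb1 UMI was 6.86% ± 8.71 at 0 barcode UMIs, 11.1% ± 4.36 at 1 to 4, 10.96% ± 2.76 at 5 to 19 and 4.32% ± 1.00 at 20 or more (SD, 3 unsorted libraries). The mean share was higher in both middle bins than at either end. In the sorted library it was 21.7%, 14.5%, 10.7% and 1.18%. The call was lost without the replicate block (adjusted p = 0.21), with DESeq2 (0.19), at 1 or more barcode UMIs (0.13), after thinning (log2 fold change -0.41, adjusted p = 0.78) and without unsorted replicate 1 (0.052), unsorted replicate 2 (0.31) or the sorted library (0.16).

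Ncald and Necab1 moved by small amounts in L5-S100b neurons. Ncald was higher in 4 of 4 libraries (1175 ± 184 against 966 ± 129 CPM, log2 fold change 0.31, edgeR adjusted p = 2.4e-05) and Necab1 lower in 4 of 4 (243 ± 21.0 against 290 ± 38.3 CPM, log2 fold change -0.22, edgeR adjusted p = 0.026), both under the size required. Necab2 (-0.72, edgeR adjusted p = 0.125), S100a10 (0.16), Hpcal4 (0.14) and Hpca (-0.01) did not pass the test. Of the other EF-hand genes, 19 of 25 were tested, with Cabp1 (0.61) higher and Kcnip2 (-0.62) and Hpcal1 (-0.52) lower. Of 8 partners tested, Pcp4 (1.10) was higher. The median log2 fold change was 0.07 over the members, 0.10 over the other EF-hand genes and -0.004 over all genes.

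**Figure D5:**
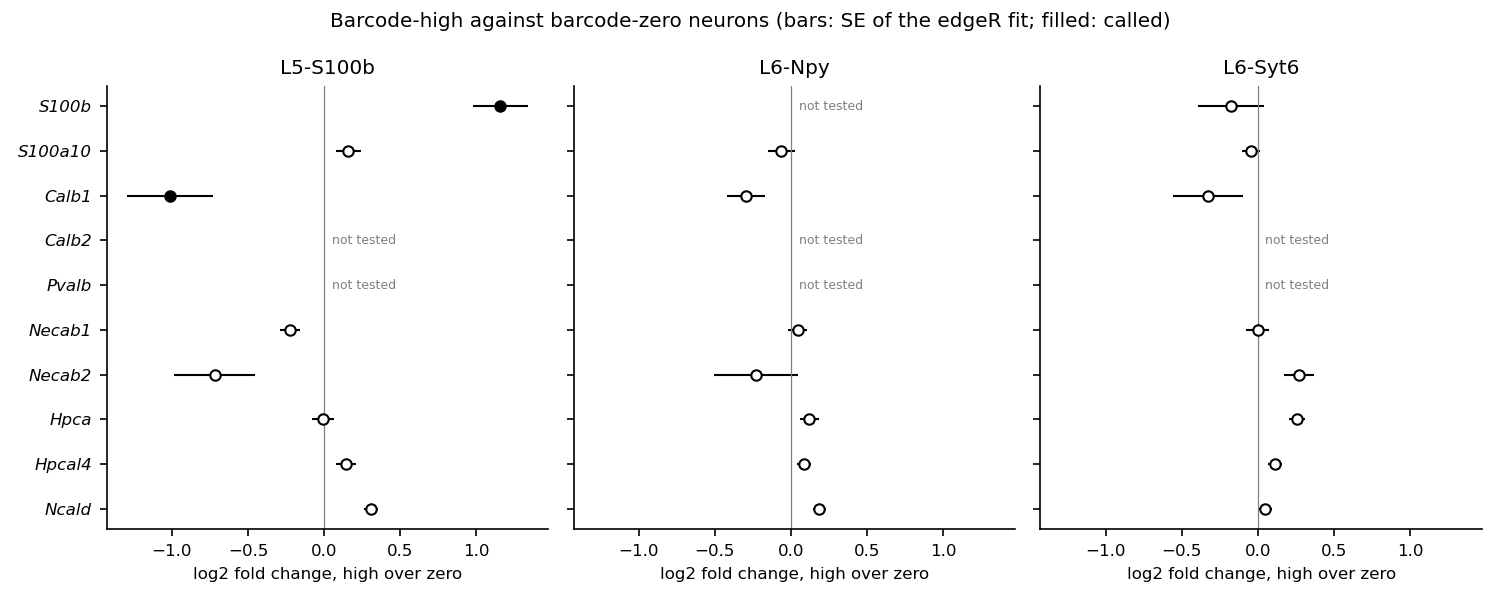
Log2 fold change of barcode-high over barcode-zero neurons (horizontal axes) for each calcium-binding gene in 3 subtypes; bars are the standard error of the edgeR fit, and filled points passed the test and the size required. S100b and Calb1 are the filled points, both in L5-S100b neurons; members too low for a test are marked.

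In L6-Syt6 neurons, 0 of 8 tested members were called, where 1.67% of 13030 genes were called by edgeR. Hpca was higher by a log2 fold change of 0.25 (edgeR adjusted p = 0.025), under the size required, and the other 7 lay between -0.33 and 0.27. S100b there was at background, with a log2 fold change of -0.18 (SE 0.22). In L6-Npy neurons, 0 of 7 were called (0.801% of 10365 genes), and Ncald was higher by 0.19 (edgeR adjusted p = 0.011), under the size required. In L2/3-Rorb neurons, 0 of 7 were called (0.139% of genes), with Calb1 lowest at -0.41 and Necab2 highest at 0.29. S100b was too low there for the filter. It was 15.8, 17.6 and 16.3 CPM in barcode-high L2/3-Rorb neurons of the unsorted libraries (142 UMIs in 374 neurons) and 1.18, 0 and 3.05 CPM in barcode-zero ones (3 UMIs in 111 neurons). In the sorted library the values were 2.96 and 0 CPM. S100b was called higher there in 2 alternatives in which it was tested, without the filter (log2 fold change 3.64, edgeR adjusted p = 1.3e-08) and without the sorted library (3.57, edgeR adjusted p = 1.0e-05). In L2/3-Calb1 neurons, 0 of 7 were called (0.18% of genes), in a range from -0.26 for Necab1 to 0.25 for Ncald, and Calb1 itself was at 0.02 (SE 0.10). In L5-Bcl6 neurons, 0 of 6 were called (0.0686% of genes), and Necab2 had a log2 fold change of -1.19 (SE 0.27, edgeR adjusted p = 0.11). At an unadjusted p under 0.05, the members numbered 3, 2, 1, 1 and 2 in these 5 subtypes in that order, where 3307 of 13030, 1096 of 10365, 681 of 10038, 473 of 8340 and 579 of 8752 genes reached it. DESeq2 called 0 members in each.

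Over all excitatory neurons, S100b was 18.1, 20.8 and 21.6 CPM in barcode-high and 3.33, 3.53 and 3.27 CPM in barcode-zero neurons of the unsorted libraries, and 12.5 and 6.86 CPM in the sorted library. S100b was the single member called of 9 tested (log2 fold change 2.34, SE 0.24, edgeR adjusted p = 0.014), where 2.34% of 14164 genes were called. The call was lost without unsorted replicate 1 (adjusted p = 0.16), 2 (0.18) or 3 (0.16). In each of these fits 0 of all genes were called, against 1386 of 14236 without the sorted library. This contrast mixes subtypes. L5-S100b neurons made up 24.3% to 25.8% of the barcode-high and 3.99% to 6.69% of the barcode-zero neurons of the unsorted libraries, and 23.0% and 12.1% in the sorted library. L6-Syt6 neurons, with S100b at background, made up 38.3% to 41.2% and 67.7% to 71.1% in the unsorted libraries, and 49.1% and 47.5% in the sorted library. Hpca was higher by 0.48 (edgeR adjusted p = 0.040), under the size required, and Necab1, which is also lower in L6-Syt6 than in L5-S100b neurons, had a log2 fold change of 0.61 (edgeR adjusted p = 0.12). Of 24 other EF-hand genes tested, Kcnip1 was called lower (log2 fold change -2.67), and 0 of 10 partners were called by edgeR.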

How the data were processed

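Droplet-based 3' RNA-seq of dissociated vmPFC was analysed in 3 unsorted libraries and 1 sorted library. The deposited matrices hold counts of UMIs per gene and cell, made by the authors with Cell Ranger (3.0.2 in the matrix header) on mm10. The excitatory subtypes are those of the authors' metadata, made with Seurat 3.1.4 and, for the clustering, Scanpy. Their file also lists the percent of mitochondrial UMIs per cell, as computed by the authors. The members and gene lists were chosen with earlier results of these data known. Named genes are the members, plus up to 4 genes of each list, taken from those with the largest called changes.

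Cells outside the metadata were kept at 1000 to 60000 UMIs, 500 to 8000 genes and at most 20% mitochondrial UMIs, and gated on marker UMIs. No doublet caller was run, and cells in both the inhibitory and astrocyte gates (0 to 2 per library) were few. Within each library the cells of a group were added up, and these sums were compared in edgeR 4.0.16 (quasi-likelihood test, TMM, filterByExpr, library as a block), with DESeq2 1.42.0 as an alternative, in R 4.3.3. Sums needed 10 or more cells and a contrast 3 or more libraries. The block pairs sums of the same library, hence of the same animals. Subtype levels were not tested. The labels title the unsorted libraries by mouse. P-values measure only the spread between these libraries. Fitting was tested on simulated data, where 97.7% of genes changed 2-fold were recovered for the contrast of inhibitory cells with excitatory neurons and 86% for the barcode contrast in L2/3-Calb1 neurons. False calls numbered 1 and 6 in these contrasts. The simulation left out genes with few counts and gave all genes a common spread. It does not cover members with few UMIs in the barcode contrasts. Intervals and limits from counts cover counting error only. The genes of most similar pattern to Necab1 are not reported here.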

Additional observations from a re-analysis of the deposited data

Results flagged for a closer look

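In 4 cases the barcode effect in L5-S100b neurons differed from that in another subtype by an interaction term in edgeR, a test added after the data were seen. Of 8 members tested in each, 3 passed against L6-Syt6 (604 of 12834 genes), 0 against L6-Npy (176 of 10905 genes) and 1 against L2/3-Rorb (115 of 10693 genes). Against L6-Syt6 neurons, the log2 difference was 1.33 for S100b (SE 0.36, adjusted p = 0.035), -0.99 for Necab2 (SE 0.28, adjusted p = 0.046) and 0.27 for Ncald (SE 0.06, adjusted p = 0.013). S100b in L6-Syt6 neurons was read as background above, so its difference largely restates the S100b change within L5-S100b neurons. The S100b difference was lost without unsorted replicate 1 (adjusted p = 0.22) or 3 (0.12). The Necab2 difference was lost without unsorted replicate 1 (adjusted p = 0.31), 2 (0.24) or 3 (0.13), and the Ncald difference likewise (0.12, 0.079 and 0.16). Against L2/3-Rorb neurons, the log2 difference of Ncald was 0.33 (SE 0.07, adjusted p = 0.0026), and it was lost without unsorted replicate 1 (adjusted p = 0.075). S100b was too low for the filter in L2/3-Rorb and L6-Npy neurons alone, with 3 UMIs in the barcode-zero neurons of each. In the fits against these subtypes, S100b passed the filter with the help of the L5-S100b sums. The S100b difference from L2/3-Rorb neurons was -2.47 (SE 0.77) and did not pass the test (adjusted p = 0.13). It lay between -1.60 and -3.85 with 1 library left out at a time, and it passed without unsorted replicate 3 (-3.85, adjusted p = 0.024). All values are from edgeR, and their causes were not tested.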

How the results depend on the processing

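Depth limits S100b, Calb2 and Pvalb in excitatory neurons, where sums in barcode-zero groups rest on few UMIs. Without the replicate block the class and Lhx6-type calls of members did not change, and S100b and Calb1 in L5-S100b neurons were lost. Of the members' log2 fold changes and differences under the alternatives, 837 kept direction and side of the threshold, 16 passed it, 23 no longer did and 39 changed sign, all 39 small and not called. Of levels, 477 moved by less than 1 SD and 73 by more, and of shares 341 and 99. The causes were not tested.

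With DESeq2, the number of genes called was 514 in excitatory neurons as a whole, 2 in L2/3-Calb1, 0 in L2/3-Rorb, 0 in L5-Bcl6, 142 in L5-S100b, 11 in L6-Npy, 1458 in Lhx6-type against Adarb2-type cells. With RLE factors, the number of genes called was 0 in L5-Bcl6. At 1 or more barcode UMIs, the number of genes called was 4 in L2/3-Calb1, 6 in L2/3-Rorb, 0 in L5-Bcl6, 202 in L5-S100b, 31 in L6-Npy, 27 in L6-Syt6. With cells thinned to 10000 UMIs, the number of genes called was 506 in excitatory neurons as a whole, 6 in L2/3-Rorb, 2 in L5-Bcl6, 197 in L5-S100b. With no filter on low counts, the number of genes called was 508 in excitatory neurons as a whole, 32 in L2/3-Calb1, 28 in L2/3-Rorb, 22 in L5-Bcl6. Without the replicate block, the number of genes called was 0 in L2/3-Rorb, 1 in L5-Bcl6, 56 in L5-S100b, 0 in L6-Npy, 75 in L6-Syt6. With 1 library left out, the genes called numbered 0 to 1386 in excitatory neurons as a whole, 12 to 26 in L2/3-Calb1, 2 to 33 in L2/3-Rorb, 4 to 31 in L5-Bcl6, 178 to 289 in L5-S100b, 45 to 75 in L6-Npy, 28 to 309 in L6-Syt6. 

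With DESeq2, the number of members called was 2 in excitatory neurons as a whole, 0 in L5-S100b. At 1 or more barcode UMIs, the number of members called was 1 in L5-S100b. With cells thinned to 10000 UMIs, the number of members called was 2 in excitatory neurons as a whole, 1 in L5-S100b. With no filter on low counts, the number of members called was 2 in excitatory neurons as a whole, 1 in L2/3-Rorb, 1 in L5-Bcl6. Without the replicate block, the number of members called was 0 in L5-S100b. With 1 library left out, the members called numbered 0 to 3 in excitatory neurons as a whole, 0 to 1 in L2/3-Rorb, 0 to 1 in L5-Bcl6, 1 to 3 in L5-S100b. 

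With DESeq2, the log2 values that changed sign were 0.0029 for L5-S100b Hpca. With RLE factors, the log2 values that changed sign were 0.0025 for L6-Syt6 Necab1. At 1 or more barcode UMIs, the log2 values that changed sign were -0.061 for L2/3-Calb1 Hpca, 0.21 for L2/3-Calb1 Necab2, 0.059 for L6-Syt6 Necab1. With cells thinned to 10000 UMIs, the log2 values that changed sign were -0.0067 for L2/3-Calb1 Calb1, 0.071 for L2/3-Calb1 Necab2, 0.028 for L2/3-Rorb Hpca, -0.042 for L2/3-Rorb Hpcal4, 0.044 for L2/3-Rorb Ncald, 0.0067 for L2/3-Rorb Necab1, -0.0033 for L2/3-Rorb S100a10, 0.21 for L5-Bcl6 S100a10, 0.039 for L6-Syt6 Necab1. With no filter on low counts, the log2 values that changed sign were 0.034 for L2/3-Rorb Hpca, 0.028 for L2/3-Rorb Ncald, 0.029 for L2/3-Rorb Necab1, 0.037 for L5-S100b Hpca, 0.0036 for L6-Syt6 Necab1. Without the replicate block, the log2 values that changed sign were 0.0066 for L5-S100b Hpca. With 1 library left out, the log2 values ranged from -0.064 to 0.14 for L2/3-Calb1 Calb1, -0.20 to 0.19 for L2/3-Calb1 Hpca, -0.31 to 0.057 for L2/3-Calb1 Necab2, -0.043 to 0.020 for L2/3-Rorb Hpca, -0.081 to 0.14 for L2/3-Rorb Hpcal4, -0.049 to 0.021 for L2/3-Rorb Ncald, -0.12 to 0.12 for L5-S100b Hpca, -0.52 to 0.25 for L6-Npy Necab2, -0.14 to 0.037 for L6-Npy S100a10, -0.046 to 0.087 for L6-Syt6 Necab1, -0.10 to 0.0033 for L6-Syt6 S100a10, -0.11 to 0.12 for L5-S100b minus L2/3-Rorb Hpca, -0.93 to 0.25 for L5-S100b minus L6-Npy S100b, -0.034 to 0.12 for L5-S100b minus L6-Syt6 Hpcal4.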
